A study of Mus musculus with 4 samples.

Results

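The genes described are 31 enzymes and helpers of mitochondrial and peroxisomal fatty acid oxidation, grouped by their known role. They were chosen with earlier results of these data known. Of these, 29 were measured, by 30 probes with a single gene symbol, among 22180 genes on the arrays. Where a gene had several probes, the one with the highest mean over the 4 arrays was used. Acsl1 and Cpt1b had no probe of their own and were not analysed here. By their main compartment, 19 of the measured genes are mitochondrial, 9 are peroxisomal and Acot1 is cytosolic.

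RNA came from epigonadal white adipose tissue, the visceral fat beside the testis, of fasted male mice, with 1 Affymetrix array for each of 4 genotypes. LDKO mice carried floxed Irs1 and Irs2, the insulin receptor substrates, together with Albumin cre, and were 4 months old. Their control, the Irs1/2-flox control, carried the same floxed genes without Cre, and its age is not given in the labels. LTKO mice carried floxed Irs1, Irs2 and FoxO1 with Albumin cre and were also 4 months old, and the Irs1/2:FoxO1-flox control carried these floxed genes without Cre, again with no age in the labels. All 4 groups therefore carried floxed Irs1 and Irs2, and the albumin promoter directs Cre to hepatocytes, so the deletion was made in liver and the readout is fat. Whether RNA of 1 mouse or of several was put on an array is not stated in the labels. With 1 array per group no difference has a replicate check, a test or a p-value, and this small number of arrays sets how precise any value can be. The 10 measured adipocyte markers all reached the level of the median gene in each array.

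Fatty acids are activated to acyl-CoA, carried into mitochondria as carnitine esters, and shortened there by repeated rounds of dehydrogenation, hydration, dehydrogenation and thiolysis. The electrons pass through electron transfer flavoprotein to ubiquinone, or through NADH, to the respiratory chain. Peroxisomes run a parallel cycle that shortens very long and branched chains and hands the products to mitochondria as carnitine esters. White adipocytes mainly store and release fatty acids, and their oxidation enzymes are among the targets of PPAR receptors and their coactivators.

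Values are log2 signals made by the RMA method, so that a difference of 1 is 2-fold, and a gene was counted as apart at 1.5-fold, which is 0.585 on the log2 scale. Shares are given against the 11090 genes whose mean over the 4 arrays reached that of the median gene, 5.15, and 27 of the 29 measured genes did so. Acot1 (mean 5.12) and Hadhb (4.83) lay just under that level, while Acaa1a (5.65) and Pex11a (6.74) were the dimmest above it. The level of 1 probe cannot be set against that of another, so only differences between arrays are compared.

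The first comparison asks how fat oxidation genes of adipose tissue differ when hepatocytes lack Irs1 and Irs2. Most mitochondrial enzymes were higher in LDKO fat than in the Irs1/2-flox control, by a median of 0.51 over 18 genes, against −0.05 over all genes. Of the 27 genes, 22 were higher, against 42.5% of all genes, and 10 were at least 1.5-fold higher, against 2.63% of all genes. Those 10 were Acadvl, Acaa1b, Cpt2, Hsd17b4, Acads, Acaa2, Crot, Etfb, Decr1 and Hadh, of which 7 are mitochondrial and 3 peroxisomal. None was 1.5-fold lower, against 3.72% of all genes, and none was 2-fold higher. Peroxisomal enzymes had a median of 0.26 over 9 genes. With LDKO set against the other control array instead, 1 gene was at least 1.5-fold higher and the medians were 0.15 and −0.17, as described with the controls further on. Since this is whole tissue, a change in the share of a cell type and a change in RNA per cell cannot be told apart.

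**Figure D1:**
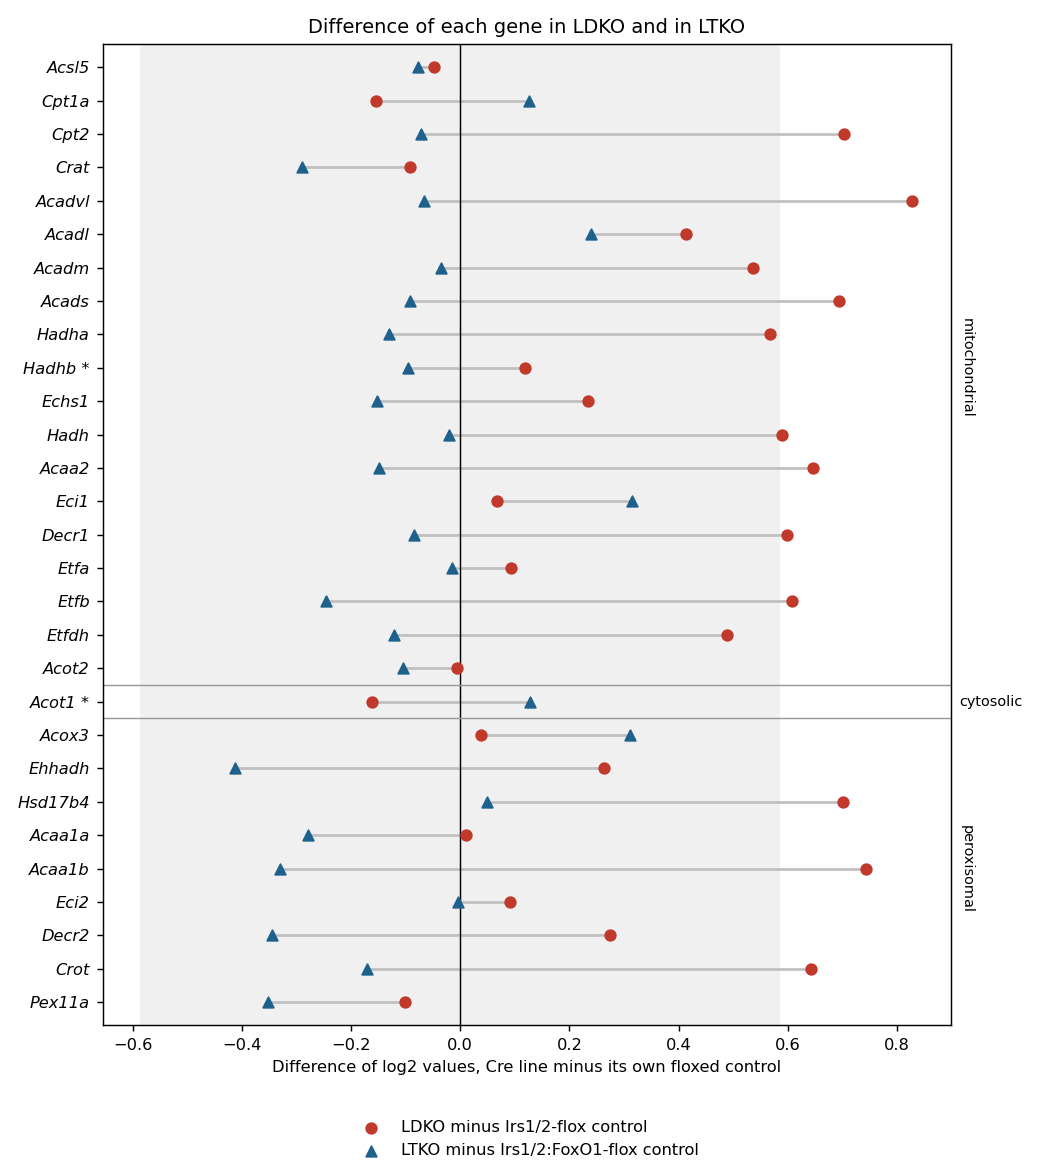
Difference of log2 values for each of the 29 measured genes (rows, grouped by compartment; an asterisk marks the 2 genes below the median gene), as LDKO minus the Irs1/2-flox control (red circles) and LTKO minus the Irs1/2:FoxO1-flox control (blue triangles), 1 array each. The grey band spans 1.5-fold either way: 10 red circles lie to its right, and every blue triangle lies inside it.

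Markers of other cell types were highest in particular arrays. The Irs1/2-flox control held the highest value of the 4 arrays for 11 of 13 skeletal muscle markers, whose mean log2 level was 4.91 in LDKO, 5.69 in the Irs1/2-flox control, 4.85 in LTKO and 4.99 in the Irs1/2:FoxO1-flox control. It also held the highest value for 7 of 9 mesothelial markers, with a mean of 6.70 in LDKO, 7.47 in the Irs1/2-flox control, 6.84 in LTKO and 6.91 in the Irs1/2:FoxO1-flox control. For macrophages this held for 8 of 12 markers, with a mean of 7.74 in LDKO against 8.03 in its control, and 7.58 in LTKO against 7.91. LTKO held the highest value for 13 of 15 hepatocyte, 7 of 9 epididymis and 7 of 8 sperm markers, with the mean hepatocyte marker at 6.47 in LTKO against 5.195 in its control and albumin at 9.82 in LTKO against 6.93 in its control. The mean level of 10 adipocyte markers was 10.96 in LDKO, 10.73 in the Irs1/2-flox control, 10.76 in LTKO and 10.76 in the Irs1/2:FoxO1-flox control. Of 9 brown fat markers, LDKO exceeded its control in 6, with a mean level of 5.12 against 4.79, and LTKO exceeded its own in 3, with 4.99 against 5.16. The defining brown fat gene Ucp1 was 4.83 in LDKO against 5.24 in its control, and 5.05 in LTKO against 5.80. The mean of 6 stromal progenitor markers was 8.63 in LDKO, 9.10 in the Irs1/2-flox control, 8.92 in LTKO and 9.14 in the Irs1/2:FoxO1-flox control. The mean of 5 endothelial markers lay between 9.13 and 9.24 in the 4 arrays. The part of these cell types in the differences of the oxidation genes was not tested.

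The acyl-CoA dehydrogenases catalyse the first step of each mitochondrial round, each for its own chain lengths, and all 4 were higher in LDKO, with a median of 0.62. Acadvl, for the longest chains, was 8.75 in LDKO against 7.92 in the Irs1/2-flox control, and 8.54 in LTKO against 8.61 in the Irs1/2:FoxO1-flox control. Acads, for short chains, was 8.16 in LDKO against 7.46 in the Irs1/2-flox control, and 7.89 in LTKO against 7.98 in the Irs1/2:FoxO1-flox control. Acadm, for medium chains, was 11.73 in LDKO against 11.19 in the Irs1/2-flox control, and 11.43 in LTKO against 11.46 in the Irs1/2:FoxO1-flox control. In these genes the Irs1/2-flox control was the lowest array, LDKO the highest, and the other arrays lay between them. Acadl, for long chains, followed another order: it was 11.14 in LDKO against 10.73 in the Irs1/2-flox control, and 10.38 in LTKO against 10.14 in the Irs1/2:FoxO1-flox control. Both arrays of the Irs1/2:FoxO1-flox line were thus below both arrays of the Irs1/2-flox line, and within each line the Cre array was the higher one.

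The later steps are hydration, a second dehydrogenation and thiolysis, and the 4 such genes that reached the median gene were all higher in LDKO. Hadha, the subunit of the trifunctional protein that hydrates and dehydrogenates long chains, was 10.47 in LDKO against 9.90 in the Irs1/2-flox control, and 10.22 in LTKO against 10.35 in the Irs1/2:FoxO1-flox control. Hadh, which dehydrogenates shorter hydroxyacyl chains, was 10.99 in LDKO against 10.40 in the Irs1/2-flox control, and 10.81 in LTKO against 10.83 in the Irs1/2:FoxO1-flox control. Acaa2, the matrix thiolase, was 8.81 in LDKO against 8.17 in the Irs1/2-flox control, and 8.41 in LTKO against 8.56 in the Irs1/2:FoxO1-flox control. These genes differed between LDKO and its control by 0.57, 0.59 and 0.65, while Echs1, the short-chain hydratase, differed by 0.23. Hadhb, the thiolase subunit that pairs with Hadha, differed by 0.12 in LDKO and −0.10 in LTKO from each line's own control. Its probe lay below the median gene, where RMA compresses differences. On that probe the control array with floxed FoxO1 was higher than the other control by 0.44, beside 0.45 for Hadha. From the control with floxed FoxO1, LDKO differed by −0.32 for Hadhb and 0.12 for Hadha. Whether compression had a part in the Hadhb values was not tested.

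Electron transfer genes and the enzymes for unsaturated chains were split by gene. Etfb, a subunit of electron transfer flavoprotein, was 8.91 in LDKO against 8.30 in the Irs1/2-flox control, and 8.45 in LTKO against 8.70 in the Irs1/2:FoxO1-flox control. Its partner subunit Etfa lay between 10.29 and 10.39 in the 4 arrays, the narrowest range of all 29 genes, 0.09. Etfdh, which passes the electrons on to ubiquinone, was 10.19 in LDKO against 9.70 in the Irs1/2-flox control, and 9.90 in LTKO against 10.02 in the Irs1/2:FoxO1-flox control. The 2 subunits of 1 heterodimer therefore differed by unlike amounts on these probes. Decr1, the mitochondrial dienoyl-CoA reductase for polyunsaturated chains, was higher in LDKO by 0.60 and lower in LTKO by 0.09. Eci1, the enoyl-CoA isomerase for unsaturated chains, differed by 0.07 in LDKO and by 0.32 in LTKO, the highest LTKO difference of the 27 genes.

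Of the 4 measured genes grouped as activation and carnitine entry, 1 was higher in LDKO. The differences of Acsl5 (−0.05), Crat (−0.09) and Cpt1a (−0.15) were smaller in size than 0.157, the median absolute difference between the control arrays. Slc25a20 and Slc22a5, carnitine carriers on the list of further mitochondrial genes, went opposite ways in LDKO. Slc25a20 was 8.94 in LDKO against 8.45 in the Irs1/2-flox control, and 8.55 in LTKO against 8.76 in the Irs1/2:FoxO1-flox control. Slc22a5 was 7.33 against 7.92, and 7.94 against 7.93, in the same order. Cpt2, the inner membrane enzyme that regenerates acyl-CoA in the matrix, was 9.002 in LDKO against 8.30 in the Irs1/2-flox control, and 8.66 in LTKO against 8.73 in the Irs1/2:FoxO1-flox control. Cpt1a, the outer membrane enzyme that controls entry, was 7.91 in LDKO against 8.07 in the Irs1/2-flox control, and 8.09 in LTKO against 7.96 in the Irs1/2:FoxO1-flox control. Acsl5, an acyl-CoA synthetase, stayed between 7.44 and 7.55 in all 4 arrays. Only Cpt2 among the 4 members was 1.5-fold apart in LDKO. Crat, which moves acetyl groups onto carnitine, was 9.84 in LDKO against 9.94 in the Irs1/2-flox control, and 10.22 in LTKO against 10.51 in the Irs1/2:FoxO1-flox control. A second, dimmer Crat probe read 0.35 higher in LDKO and 0.06 higher in LTKO than in each line's own control, so the 2 probes disagree in sign in both lines. Acot2, the mitochondrial thioesterase that frees fatty acids from CoA, was 10.47 in LDKO and 10.47 in the Irs1/2-flox control, and 10.87 in LTKO against 10.98 in the Irs1/2:FoxO1-flox control. Acot1, its cytosolic neighbour on chromosome 12, differed by −0.16 in LDKO and 0.13 in LTKO, and since the genes of this family are near copies, signal shared between their probes was not tested.

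**Figure D2:**
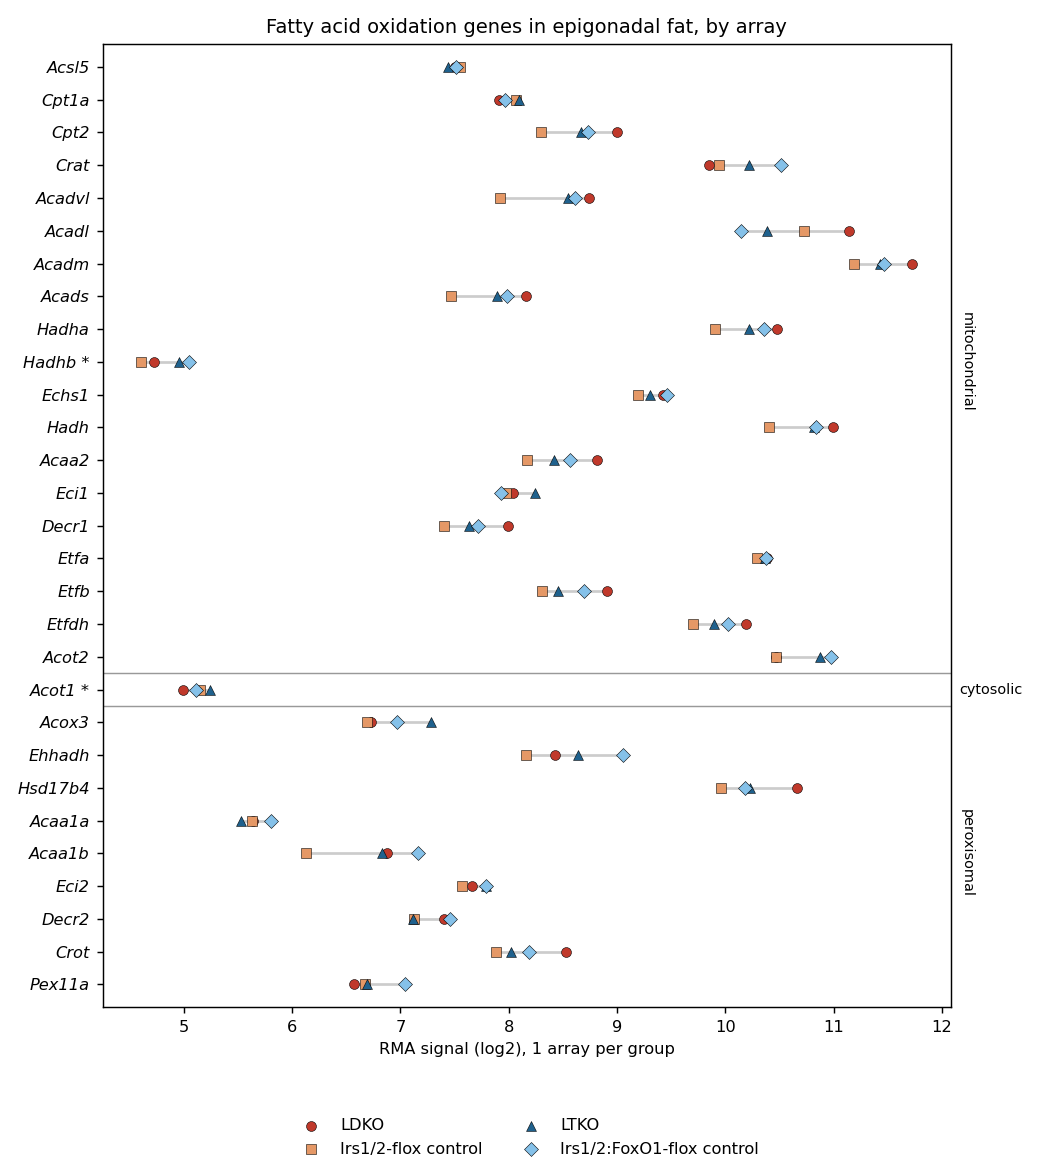
RMA signal (log2) of the 29 measured genes in LDKO (red circles), the Irs1/2-flox control (orange squares), LTKO (blue triangles) and the Irs1/2:FoxO1-flox control (light blue diamonds), 1 array each; grey lines span the 4 arrays. Levels of different rows are from different probes and are not comparable; within rows such as Cpt2, Acadvl, Hadh and Etfb the red circle lies farthest right and the orange square farthest left.

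The peroxisomal enzymes were less uniform. Hsd17b4, the bifunctional enzyme that also handles branched chains, was 10.66 in LDKO against 9.96 in the Irs1/2-flox control, and 10.23 in LTKO against 10.18 in the Irs1/2:FoxO1-flox control. Crot, which exports medium chains as carnitine esters, was 8.53 in LDKO against 7.88 in the Irs1/2-flox control, and 8.02 in LTKO against 8.19 in the Irs1/2:FoxO1-flox control. In both genes LDKO was the highest array and the Irs1/2-flox control the lowest. Ehhadh, the other bifunctional enzyme, was 8.42 in LDKO against 8.16 in the Irs1/2-flox control, and 8.64 in LTKO against 9.05 in the Irs1/2:FoxO1-flox control. Acaa1b, a peroxisomal thiolase, was 6.88 in LDKO against 6.13 in the Irs1/2-flox control, and 6.83 in LTKO against 7.16 in the Irs1/2:FoxO1-flox control. For these genes the highest array was the Irs1/2:FoxO1-flox control, so their difference in LDKO, 0.26 and 0.74 against its own control, was −0.63 and −0.28 against the other control. Acaa1a, the companion thiolase on the same chromosome with 4 protein-coding genes between them, differed by 0.01 in LDKO and −0.28 in LTKO, and these genes are also near copies whose probes may share signal, which was not tested.

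The remaining peroxisomal genes were each less than 1.5-fold apart in both lines. Acox3, an acyl-CoA oxidase for branched chains, was 6.73 in LDKO against 6.69 in the Irs1/2-flox control, and 7.28 in LTKO against 6.97 in the Irs1/2:FoxO1-flox control. Decr2, the peroxisomal dienoyl-CoA reductase, was 7.40 in LDKO against 7.13 in the Irs1/2-flox control, and 7.11 in LTKO against 7.46 in the Irs1/2:FoxO1-flox control. Pex11a, a membrane protein of peroxisome division, was 6.57 in LDKO against 6.67 in the Irs1/2-flox control, and 6.69 in LTKO against 7.05 in the Irs1/2:FoxO1-flox control. Eci2, an isomerase found in peroxisomes and mitochondria, ranged over 0.22 in the 4 arrays.

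The 150 bases before the start are shown for each of the 10 genes at least 1.5-fold higher in LDKO that matched an entry, with or without a motif: Acadvl, Cpt2, Acads, Hadh, Etfb, Crot and Acaa1b. Etfdh, 0.49 higher in LDKO and so under 1.5-fold, is shown for its NRF1 match, Acaa1a beside its companion Acaa1b, and Hadha for the start region it shares with Hadhb. They are from RefSeq, build GRCm38.p6, written from 5′ to 3′ on the strand of the gene, and of the 29 measured genes 25 matched an entry. Capitals mark GGGCGG (the GC box), CCAAT (the CCAAT box) and GCGCA followed after any 1 base by GCGC (the motif of nuclear respiratory factor NRF1), each on either strand.
Acadvl, chr11:70015429-70015578, minus strand: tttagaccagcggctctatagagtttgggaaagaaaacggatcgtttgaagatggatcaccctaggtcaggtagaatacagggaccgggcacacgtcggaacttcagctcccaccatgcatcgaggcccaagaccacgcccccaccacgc
Cpt2, chr4:107923590-107923739, minus strand: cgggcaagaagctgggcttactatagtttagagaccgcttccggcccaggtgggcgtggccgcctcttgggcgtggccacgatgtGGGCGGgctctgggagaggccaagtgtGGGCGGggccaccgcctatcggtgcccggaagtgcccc
Acads, chr5:115119347-115119496, minus strand: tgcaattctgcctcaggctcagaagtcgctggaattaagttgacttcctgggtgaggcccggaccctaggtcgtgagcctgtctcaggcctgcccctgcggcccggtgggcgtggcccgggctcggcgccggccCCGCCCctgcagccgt
Hadh, chr3:131272102-131272251, minus strand: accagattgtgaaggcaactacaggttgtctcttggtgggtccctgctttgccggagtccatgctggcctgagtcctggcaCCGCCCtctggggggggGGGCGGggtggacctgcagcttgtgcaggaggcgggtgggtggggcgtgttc
Etfb, chr7:43443922-43444071, plus strand: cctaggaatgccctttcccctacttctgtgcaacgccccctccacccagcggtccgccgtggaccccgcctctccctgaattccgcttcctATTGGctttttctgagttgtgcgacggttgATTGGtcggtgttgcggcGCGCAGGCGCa
Etfdh, chr3:79628768-79628917, minus strand: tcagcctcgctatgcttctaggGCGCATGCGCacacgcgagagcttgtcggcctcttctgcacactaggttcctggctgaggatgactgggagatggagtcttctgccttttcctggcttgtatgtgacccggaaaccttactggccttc
Crot, chr5:8997147-8997296, minus strand: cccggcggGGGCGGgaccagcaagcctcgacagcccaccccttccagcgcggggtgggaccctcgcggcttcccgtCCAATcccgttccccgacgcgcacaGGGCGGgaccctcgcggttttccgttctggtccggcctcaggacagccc
Hadha, chr5:30154981-30155230, minus strand: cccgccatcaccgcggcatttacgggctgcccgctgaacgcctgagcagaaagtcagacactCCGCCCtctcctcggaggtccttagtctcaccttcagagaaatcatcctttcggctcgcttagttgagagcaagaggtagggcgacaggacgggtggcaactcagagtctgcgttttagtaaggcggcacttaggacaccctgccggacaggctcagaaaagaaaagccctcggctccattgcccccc
Acaa1b, chr9:119157094-119157243, minus strand: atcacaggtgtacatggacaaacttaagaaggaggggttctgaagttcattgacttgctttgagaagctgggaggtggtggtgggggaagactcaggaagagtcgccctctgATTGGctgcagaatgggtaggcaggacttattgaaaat
Acaa1a, chr9:119341144-119341293, plus strand: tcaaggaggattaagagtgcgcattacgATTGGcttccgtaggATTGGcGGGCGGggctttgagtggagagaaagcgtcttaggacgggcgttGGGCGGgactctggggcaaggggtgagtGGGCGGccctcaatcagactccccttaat

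Within 250 bases before the start, GGGCGG stood in 16 of the 25 windows, against 32.7% of all 32851 windows of that length, and CCAAT in 13, against 33.8%. The NRF1 letters stood in 2, those of Etfb and Etfdh, against 3.74% of all windows. The direct repeat of AGGNCA with 1 base between the copies, the form bound by PPAR with RXR, and TNAAGGTCA, the form bound by estrogen-related receptors, stood in none of the 25, against 0.338% and 1.14% of all windows. At shares this low, most sets of 25 windows would hold no match. Only these exact letters within 250 bases were searched, so the absence does not tell whether the genes have such sites. The Acadvl window, that of the gene with the largest difference in LDKO, held none of these motifs. Matches of different motifs did not overlap in the bases shown, and the NRF1 match of Etfdh reads on both strands. GC boxes were found in windows of genes that differed in LDKO, such as Cpt2 and Hadh, and of genes that did not, such as Cpt1a and Acaa1a. A match is a description of these letters, not a bound site. The starts of Hadha and Hadhb are 272 bases apart and face away from each other, so the window shown for Hadha holds most of the space between them. The 250 bases before Acaa1a and Acaa1b were 51.4% identical in a global alignment of 288 columns.

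The LTKO array adds the loss of hepatocyte FoxO1 to that of Irs1 and Irs2, and its question is whether the pattern in fat is then still seen. In LTKO fat the oxidation genes were near or below the level of the Irs1/2:FoxO1-flox control. None of the 27 was at least 1.5-fold higher, against 2.42% of all genes, and none 1.5-fold lower, against 0.766%. Of them 5 were higher, against 41.8% of all genes: Eci1, Acox3, Acadl, Cpt1a and Hsd17b4. The median was −0.08 over the mitochondrial genes and −0.28 over the peroxisomal genes, against −0.04 over all genes. The most negative differences were those of Ehhadh (−0.41), Pex11a (−0.35), Decr2 (−0.34) and Acaa1b (−0.33), all peroxisomal, followed by Crat (−0.29).

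The third comparison sets the effects of both lines side by side. The effect in LTKO was at least 1.5-fold lower than the effect in LDKO for 14 of the 27 genes, against 4.99% of all genes, and at least 1.5-fold higher for none, against 6.93%. The median difference of effects was −0.59 over the mitochondrial and −0.62 over the peroxisomal genes, against 0.01 over all genes. The largest was that of Acaa1b, −1.07, followed by Acadvl (−0.895), Etfb (−0.85) and Crot (−0.81). The effect was higher in LTKO for 3 of the 27 genes, against 51.7% of all genes: Cpt1a (0.28), Acox3 (0.27) and Eci1 (0.25). The controls enter these values, so any difference of theirs is part of them. Taken straight between the Cre arrays, LTKO minus LDKO was above 0 for 8 of the 27 genes, against 57.6% of all genes. At least 1.5-fold lower was 1 gene, Acadl (−0.76), against 2.29%, and none was as much higher, against 4.51%. The direct medians were −0.23 for the mitochondrial and −0.05 for the peroxisomal genes, against 0.05 over all genes, and a direct difference holds any difference between the floxed lines. Across the 27 genes the effects of LDKO and LTKO, which share no array, had a Pearson's r of −0.09 and a Spearman's rho of −0.03, as a description over genes measured on the same arrays.

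**Figure D3:**
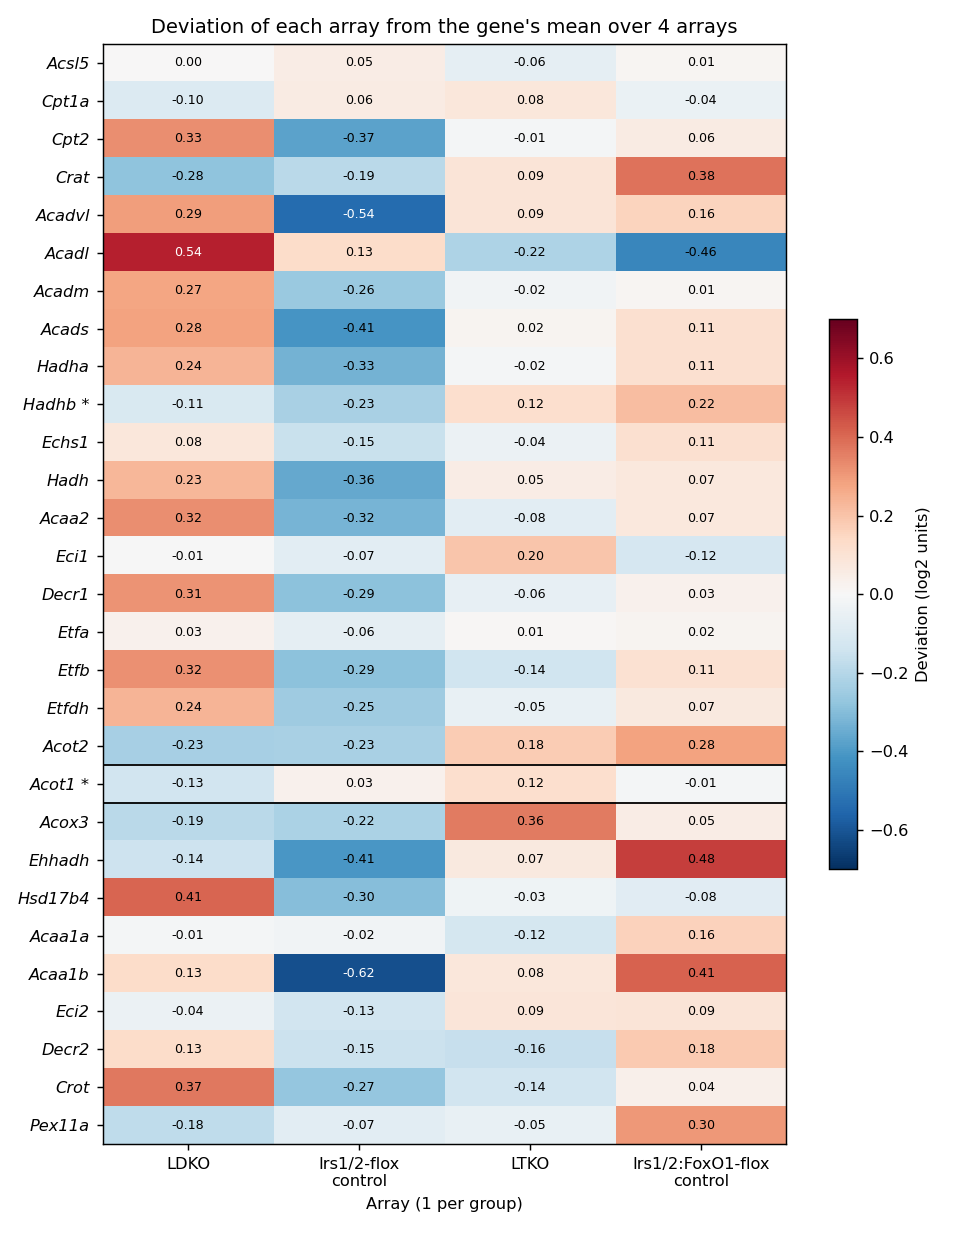
Deviation of each array from the gene's own mean over the 4 arrays (log2 units; red above, blue below) for the 29 measured genes, with the LDKO array left of the Irs1/2-flox control and the LTKO array left of the Irs1/2:FoxO1-flox control. The Irs1/2-flox control column is the lowest array for 18 of the 27 genes at or above the median gene, and the LDKO column is the highest for 14 of them.

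The pair of control arrays, neither with Cre, shows how far apart arrays without the deletion were; they also differ in the FoxO1 locus, which is floxed in 1 of them. The Irs1/2:FoxO1-flox control was higher than the Irs1/2-flox control for 23 of the 27 genes, against 55.7% of all genes, with a median of 0.36 over the mitochondrial and 0.31 over the peroxisomal genes. At least 1.5-fold higher were Acaa1b (1.03), Ehhadh (0.89) and Acadvl (0.69), which is 3 genes, against 1.95% of all genes. At least as much lower was Acadl (−0.59), against 2.28%. The Irs1/2-flox control was the lowest of the 4 arrays for 18 of the 27 genes, against 24.0% of all genes.

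Set against the other control, LDKO was higher for 15 of the 27 genes, against 39.0% of all genes. It was at least 1.5-fold higher for Acadl alone (1.00), against 2.5% of all genes, and at least 1.5-fold lower for Crat (−0.665) and Ehhadh (−0.63), against 4.1%. The mitochondrial median was then 0.15 and the peroxisomal median −0.17, against −0.07 over all genes. These values share the LDKO array with the first comparison. The 10 genes that were 1.5-fold higher against its own control differed from the other control by 0.14 (Acadvl), 0.17 (Acads), 0.16 (Hadh), 0.25 (Acaa2), 0.27 (Cpt2), 0.28 (Decr1), 0.21 (Etfb), 0.48 (Hsd17b4), 0.34 (Crot) and −0.28 (Acaa1b). LTKO set against the Irs1/2-flox control was higher for 23 of the 27 genes, against 51.4% of all genes, and at least 1.5-fold higher for 3, against 2.01%: Acaa1b (0.70), Acadvl (0.63) and Acox3 (0.59). None was as much lower, against 1.96%.

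The order of the arrays is given for each compartment. LDKO was the highest array for 12 of 18 mitochondrial genes and 2 of 9 peroxisomal genes, against 22.2% of all genes. The Irs1/2:FoxO1-flox control was the highest for 3 mitochondrial and 6 peroxisomal genes, against 32.8%. LTKO was the highest for 3 of the 27 genes, against 20.8%, and the Irs1/2-flox control for 1, Acsl5, against 24.2%. LDKO was the lowest array for 4 of the 27, against 38.7%. A single order, with LDKO above the Irs1/2:FoxO1-flox control, then LTKO, then the Irs1/2-flox control, was shared by 12 of the 27 genes, against 5.22% of all genes. These were Cpt2, Acadvl, Acadm, Acads, Hadha, Hadh, Acaa2, Decr1, Etfa, Etfb and Etfdh, which are mitochondrial, and the peroxisomal Crot. Another order had the Irs1/2:FoxO1-flox control above LTKO, then the Irs1/2-flox control, then LDKO. It was shared by Crat, Acot2 and Pex11a, 3 of the 27 genes, against 9.28% of all genes. No test of the difference between the compartments was possible.

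Further genes were listed by pathway and not by compartment, and Acad11 stands on both the mitochondrial and the peroxisomal list. For mitochondrial fatty acid oxidation there were 20 further genes at or above the median gene. In LDKO, 1 was at least 1.5-fold higher than in its control, against 2.63% of all genes, and 4 were as much lower, against 3.72%. Their median was 0.08. Acad9, a dehydrogenase that also assembles complex I, was 7.03 in LDKO against 6.17 in its control, Acsl4, a synthetase that prefers arachidonate, 7.14 against 7.95, and the uncoupling protein Ucp3 6.53 against 7.18. In LTKO, Acad9 was 6.47 against 6.37 in its control, Acsl4 7.42 against 7.43 and Ucp3 7.51 against 7.61. None of the 20 genes was 1.5-fold apart in LTKO, against 2.42% of all genes higher and 0.766% lower, with a median of −0.11. Of 25 further peroxisomal genes at or above the median gene, 2 were 1.5-fold higher and 3 lower in LDKO, against 2.63% and 3.72% of all genes, with a median of 0.12. In LTKO, 1 was higher and 1 lower, against 2.42% and 0.766%, with a median of −0.12. Hacl1, which splits 2-hydroxy acyl chains, was 8.77 in LDKO against 7.66 in its control, and 8.21 in LTKO against 8.32. Acot4, a peroxisomal thioesterase of the Acot cluster, was 4.96 against 6.08, and 6.21 against 6.21, although its other probe differed by 0.11 and −0.29. Slc27a2, a very long chain acyl-CoA synthetase abundant in liver, was 5.55 in LDKO against 6.26, and 7.12 in LTKO against 5.24, while its other probe differed by −0.05 and −0.07.

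Peroxins, the proteins that build peroxisomes, had a median of 0.01 in LDKO over 12 genes and −0.10 in LTKO, and Pex16 was 7.02 in LDKO against 6.30 in its control. In LTKO Pex10 differed by −0.42 and Pex19 by −0.29. Of 13 regulators at or above the median gene, none was 1.5-fold higher in LDKO, against 2.63% of all genes, and 1 was as much lower, against 3.72%: the phosphatase and coactivator Lpin1, with 9.92 against 10.63. The coactivator gene Ppargc1a was 6.01 in LDKO against 6.48 in its control, and 7.07 in LTKO against 6.88. Rxra, the partner receptor of PPARs, differed by −0.47 and −0.08, Pparg by 0.05 and −0.36, Ppara by 0.03 and −0.12, and Esrra by 0.25 and 0.04. None of the 13 was 1.5-fold apart in LTKO, against 2.42% of all genes higher and 0.766% lower.

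Of 14 measured PPAR target genes outside oxidation, 12 were at or above the median gene. Of the 12, 2 were 1.5-fold higher and 2 lower in LDKO, against 2.63% and 3.72% of all genes, and 1 was higher in LTKO, against 2.42%. Both dim ones were also higher in LTKO: Cyp4a14, a fatty acid hydroxylase, at 6.67 in LTKO against 3.16 in its control and 3.40 in LDKO against 3.76, and Fabp1, the liver fatty acid binding protein, at 4.45 in LTKO against 2.88 and 3.06 in LDKO against 3.26. These 2 genes were named after their values were seen, and LTKO is also the array with the highest hepatocyte markers, whose part was not tested. The pantetheinase Vnn1 was 7.34 in LDKO against 9.96 in its control, and 10.08 in LTKO against 10.05. Cidea, a lipid droplet protein, was 7.43 in LDKO against 5.97 in its control, and 6.93 in LTKO against 7.22. G0s2, an inhibitor of lipolysis, was 8.74 in LDKO against 7.89, and 8.28 in LTKO against 7.67, while its dimmer probe differed by 0.22 and 0.11. Of the ketone body genes, Oxct1, which uses ketone bodies, was 10.33 in LDKO against 9.48 in its control, and 9.37 in LTKO against 9.36, and Acat1 differed by 0.24 and −0.08.

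In LDKO against its own control, the respiratory chain and the TCA cycle had medians close to that of mitochondrial fatty acid oxidation, 0.51. Amino acid breakdown had a lower median, as did peroxisomal fatty acid oxidation, 0.26. In LDKO against its own control, 28 respiratory chain genes had a median of 0.52, with 28 higher, and 13 TCA cycle genes had one of 0.51, with 12 higher, against a median of −0.05 and 42.5% higher over all genes. For 16 genes of branched-chain amino acid breakdown it was 0.15, with 13 higher. Among the leading genes were Cycs (1.18), Ndufb3 (1.05), Ndufs1 (0.80), Idh3a (0.89), Cs (0.80), Fh1 (0.67), Mccc1 (0.84), Bcat2 (0.82) and Pcca (0.69). Against the Irs1/2:FoxO1-flox control the medians of these 3 comparison lists were 0.27, 0.12 and −0.04, beside 0.15 for mitochondrial fatty acid oxidation. Higher in LDKO were then 28 of 28, 10 of 13 and 7 of 16 genes, beside 13 of 18, against 39.0% of all genes. In LTKO against its own control they were −0.07, −0.13 and −0.14. Whether the groups differ from each other could not be tested with 1 array each.

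**Figure D4:**
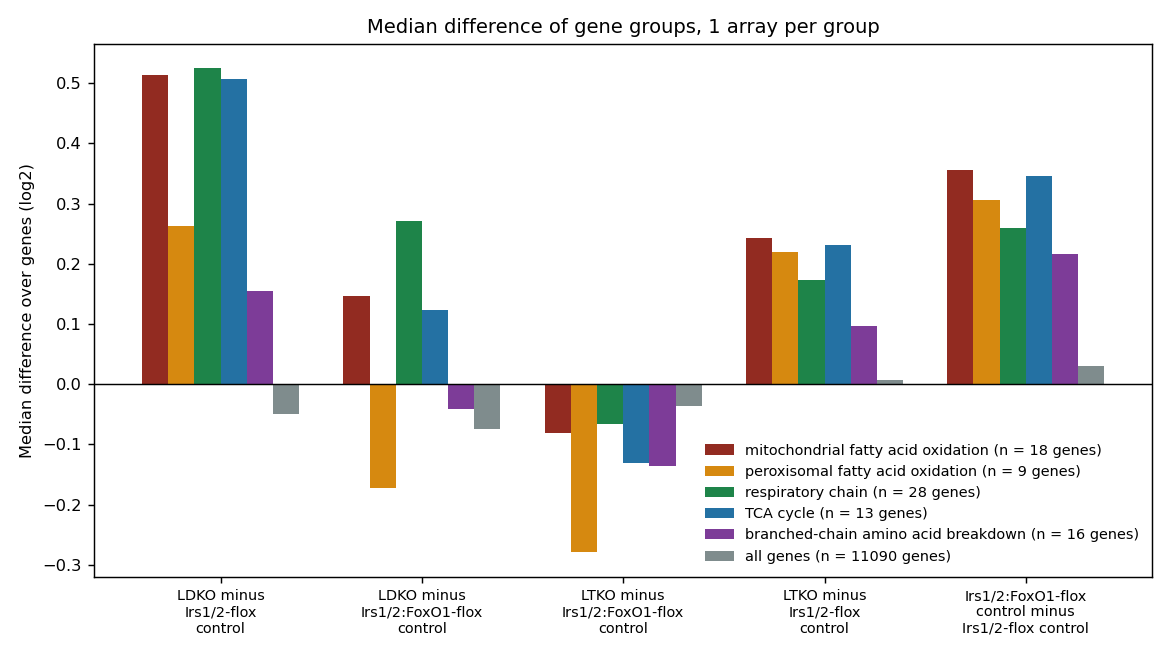
Median difference (log2) over the genes at or above the median gene in each group, as bars that start at 0, for 5 contrasts of single arrays. Mitochondrial fatty acid oxidation (0.51), the respiratory chain (0.52) and the TCA cycle (0.51) stand close together in LDKO minus the Irs1/2-flox control, and peroxisomal fatty acid oxidation is at 0.26 for LDKO against its own control and at −0.17 against the other control.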

How the data were processed

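The authors deposited log2 intensities, 1 per probe set and array, computed with RMA in Affymetrix Expression Console, per the submitters' processing notes. Which arrays were normalized together, and the version, is not stated here. RMA removes a shift common to all genes and compresses differences of dim probes. Medians over all 41345 probes lay between 4.68 and 4.73 in the 4 arrays, and Pearson's r across genes between arrays between 0.986 and 0.991.

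Groups were taken from the source names. Of the probes, 23521 have 1 gene symbol, 1814 several and 16010 none here; updating symbols through gene identifiers to GRCm38.p6 changed 0 of them. Differences were taken between log2 values, with no test. The genes, their compartments, the 6 pathway, 3 comparison and 10 marker lists were chosen with earlier results of these data known. All measured members were named. Named from each pathway or comparison list were the 3 genes with the largest absolute difference in LDKO or LTKO. Only genes at or above the median gene were eligible for this. Pparg, Ppara, Esrra, Slc25a20, Slc22a5, Cyp4a14, Fabp1 and single markers were named outside this rule, with their values known. Cidea, Ppara, Pdk4 and Acad11 stand on 2 lists each. Steps were tested on simulated data. Motifs were searched in RefSeq promoter windows on both strands. Tools were Python 3.11.15, pandas 2.3.3, numpy 2.4.6, statsmodels 0.14.6 (loess curve), biopython 1.88 (alignment) and matplotlib 3.10.9.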

Additional observations from a re-analysis of the deposited data

Results flagged for a closer look

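For 9 of the 27 genes at or above the median gene, LDKO was at least 1.5-fold apart from its control while LTKO differed from its own control in the opposite direction. The share of all genes that meet this rule was not computed, so the count has no background beside it. All 9 were higher in LDKO. Of all genes, 41.8% were above 0 in LTKO against its control, so a lower value in LTKO was common. With 1 array per group the difference between the lines was not tested. The effect in LTKO minus the effect in LDKO was −1.07 for Acaa1b, −0.895 for Acadvl, −0.85 for Etfb, −0.81 for Crot, −0.80 for Acaa2, −0.79 for Acads, −0.77 for Cpt2, −0.68 for Decr1 and −0.61 for Hadh. In LTKO these genes differed from their control by −0.33, −0.07, −0.25, −0.17, −0.15, −0.09, −0.07, −0.09 and −0.02, in the same order. Most of these LTKO differences were smaller in size than 0.157, the median absolute difference between the control arrays. Directly between the Cre arrays, LTKO minus LDKO was −0.05, −0.20, −0.46, −0.51, −0.40, −0.26, −0.34, −0.37 and −0.18, in the same order. For Acaa1b the controls differed by 1.03.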

How the results depend on the processing

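No paired analysis was possible because each group has 1 array, and for the same reason no array could be left out. A count was taken as moved when it changed by over 1.5 times or to or from 0, and a median or single value when it changed by 0.157 or more, the median absolute difference between the control arrays. Of 196 recomputed counts and medians, 174 stayed within these bounds, 18 moved and 4, all peroxisomal medians, turned in sign from a size of at least 0.157; sign changes of smaller medians are among the rest. With the other control as reference, LDKO had 1 gene higher and 2 lower at 1.5-fold, a mitochondrial median of 0.15 and a peroxisomal median of −0.17, and Acaa1b was at −0.28; LTKO had 3 higher, and medians of 0.24 and 0.22. With the mean of both controls, 2 genes were higher in LDKO, and the peroxisomal medians were −0.0217 in LDKO and 0.0327 in LTKO. At 2-fold, 0 genes were higher in LDKO, 1 effect was lower in LTKO than in LDKO, 0 genes were lower in LTKO directly against LDKO, and 1 was higher and 0 lower between the controls. At 1.3-fold, 1 gene was lower in LTKO than in its control, 2 were higher and 5 lower in LTKO than in LDKO, and 11 were higher between the controls. The shares of all genes at 2-fold and at 1.3-fold were not computed, so these counts have no background beside them. Without Acaa1b the peroxisomal median of the difference of effects was −0.46, and without Acadl 0 genes were lower in LTKO than in LDKO. Quantile normalization again left 0 genes lower between the controls. For the differences of the 27 single genes in LDKO and LTKO from their own controls, 390 of 470 recomputed values stayed within the bound. Of the others, 1 that was at least 1.5-fold apart turned in sign, that of Acaa1b, and 79 moved, which includes sign changes of smaller differences such as that of Ehhadh in LDKO (0.26, and −0.63 with the other control). The filters on dim genes, the mean of all probes, the loess curve and leaving out dual or near-identical genes took no count or median past these bounds; without the dual and near-identical genes, 9 genes were higher in LDKO, 13 effects were lower in LTKO and 2 genes were higher between the controls. In these cases the cause was not tested. Dim probes such as Hadhb and Acot1 limit what can be seen of those genes.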
